A study of Homo sapiens with 10 samples.

Results

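The chromatin around 7 genes of translation initiation and elongation was followed in RPMI-8402, an established cell line of human T-cell acute lymphoblastic leukaemia: EIF4E, EIF4G1, EIF4A1, EIF3B, EIF5A, EEF1A1 and EEF2. Each gene was represented by 1 fixed window on hg19, of 16.0 to 62.0 kb, and its members are all peaks that share at least 1 bp with that window in any of 6 deposited peak lists. The windows held 55 of the 121294 peaks of these lists, namely 2 of 895 for MYCN, 7 of 9498 for MYC in set C, 11 of 18018 for MYC in set D, 16 of 13852 for H3K4me3, 14 of 39528 for H3K27ac and 5 of 39503 for H3K4me1. The windows are intervals of position, and genes and windows were chosen with earlier results of these data known.

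The cells were untreated and carried no engineered change that the labels name, and they were profiled by CUT&RUN, in which an antibody held on chromatin recruits a nuclease that cuts out the DNA beside its target. The antibodies were against MYCN (set A, 1 library), H3K4me3 (set B, 1 library), MYC, H3K27ac and H3K4me1 (set C, 1 library each) and MYC again (set D, 1 library), and each of the 4 sets had an IgG control library. No replicate exists for any target other than MYC, and nothing says that the 2 MYC libraries came from separate cultures. Both MYC lists name the same signal track in their headers, and for set D the labels enter the MYC library itself as control, so it is not settled that the lists are independent, and they came from different peak callers. A list gives positions with no score or read count, so the depth is unknown and a peak is either listed or not. IgG peaks were not used here, so no background from IgG stands beside the counts.

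As background, translation of most mRNAs begins when the cap at the 5′ end is bound by eIF4E, which joins the scaffold eIF4G and the RNA helicase eIF4A in the cap-binding complex eIF4F. The complex eIF3, whose scaffold includes eIF3B, bridges eIF4G to the small ribosomal subunit. Once the ribosome is assembled, eEF1A brings aminoacyl-tRNA to it, eEF2 moves it along the mRNA, and eIF5A, the protein that carries hypusine, relieves stalls during peptide bond formation. MYC and MYCN bind DNA as partners of MAX, with a preference for the E-box CACGTG. H3K4me3 marks active promoters, H3K27ac active promoters and enhancers, and H3K4me1 mostly enhancers and promoter flanks.

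The sequences before the gene starts show how unevenly this E-box is spread over the genes. Of the 250 bases before the start in the RefSeq promoter table (GRCh38.p14), 5 genes are printed below, 2 with the canonical E-box, 2 with only the variant CATGTG or its reverse CACATG, and 1 with none of the letters searched although MYC was listed there in both sets. Capitals mark CACGTG and also CATGTG and CACATG. The positions are those of GRCh38.p14 and were not placed on the hg19 peaks. They are chr4:98929134-98929383 on the minus strand for EIF4E, chr3:184314356-184314605 on the plus strand for EIF4G1, chr7:2354577-2354826 on the plus strand for EIF3B, chr19:3985464-3985713 on the minus strand for EEF2 and chr6:73521033-73521282 on the minus strand for EEF1A1.
EIF4E: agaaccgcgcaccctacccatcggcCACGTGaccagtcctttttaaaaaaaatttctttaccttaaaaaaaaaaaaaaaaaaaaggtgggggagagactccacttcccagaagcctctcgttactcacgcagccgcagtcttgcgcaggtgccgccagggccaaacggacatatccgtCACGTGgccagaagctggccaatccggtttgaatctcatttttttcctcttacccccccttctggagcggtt
EIF4G1: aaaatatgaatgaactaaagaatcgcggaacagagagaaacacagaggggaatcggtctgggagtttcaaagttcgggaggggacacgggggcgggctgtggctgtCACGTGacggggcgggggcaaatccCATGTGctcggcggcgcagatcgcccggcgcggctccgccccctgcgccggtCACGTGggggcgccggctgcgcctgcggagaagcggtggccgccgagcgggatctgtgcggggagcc
EIF3B: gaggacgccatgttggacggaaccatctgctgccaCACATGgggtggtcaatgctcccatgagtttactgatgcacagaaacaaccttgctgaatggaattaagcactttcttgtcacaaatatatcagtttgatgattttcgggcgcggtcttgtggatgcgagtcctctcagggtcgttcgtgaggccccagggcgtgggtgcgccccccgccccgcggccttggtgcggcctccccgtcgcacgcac
EEF2: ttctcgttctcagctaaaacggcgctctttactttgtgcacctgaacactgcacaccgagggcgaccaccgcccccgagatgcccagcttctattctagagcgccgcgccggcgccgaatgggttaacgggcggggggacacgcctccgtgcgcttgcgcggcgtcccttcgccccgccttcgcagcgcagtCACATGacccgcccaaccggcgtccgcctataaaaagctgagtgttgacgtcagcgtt
EEF1A1: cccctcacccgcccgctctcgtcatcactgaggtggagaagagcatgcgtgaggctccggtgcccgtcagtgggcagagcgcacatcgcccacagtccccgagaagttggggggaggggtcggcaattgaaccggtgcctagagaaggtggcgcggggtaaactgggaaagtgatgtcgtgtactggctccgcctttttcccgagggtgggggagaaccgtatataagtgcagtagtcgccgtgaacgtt

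EIF4E held CACGTG at 225 and 72 bases before its start, and EIF4G1 held it at 144 and 67 bases, with CATGTG between them at 119 bases. The letters of EIF4G1 are those of its most upstream start, the only 1 of its 3 starts with any of the motifs. EIF3B and EEF2 each held CACATG, at 215 and 58 bases before the start. EIF4A1, with 1 start in the table, had none of these letters, and nor did the most upstream of the 6 starts of EIF5A. In all, CACGTG stood in 2 of the 7 most upstream promoters and CATGTG, on either strand, in 3, against 6.46% and 9.63% of the 27305 genes of the table. The third variant searched on both strands, CACGCG or CGCGTG, stood in none of the 7, against 9.63% of genes, although 3 of the 6 starts of EIF5A had at least 1 of the motifs. A wider list held 39 other translation factors and related genes, of which 30 were matched in the table. CACGTG stood in 6 of the 30: EIF2B3, EIF3F, EIF3K, EIF4B, EIF4H and DOHH. CATGTG stood in 1 of the 30 and CACGCG in 3. No match overlapped another in the 7 promoters. These matches describe letters only, and a window without them says nothing on whether the factor binds.

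MYC was listed in every window. The SEACR list of set C had a MYC region in 6 of the 7 windows, all but EIF5A, and the MACS2 list of set D had a peak in all 7. At EIF4A1 the only set C region crossed the far window edge, 10086 bp from the set D peak on the start side of the gene. For comparison, among 11690 consecutive tiles of the genome of 19000 bp that hold H3K4me3, 53.3% held MYC of set C, 82.4% MYC of set D, 85.4% MYC of at least 1 set and 50.3% both. MYCN lay in 1 window, EIF3B, against 6.29% of such tiles. H3K4me3 and H3K27ac were present in all 7 windows, while H3K4me1 was found in 4, against 82.3% of tiles with H3K27ac and 45.6% with H3K4me1. The only H3K27ac at EEF2 crossed the window edge with 80 bp inside, and that at EIF4G1 lay near the far end of its window. The H3K4me1 at EIF5A was 168 bp wide, with 0.0% of its list narrower. The windows are longer than the tiles at 3 genes and shorter at 3, so these shares are a rough setting for the counts and not a test.

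**Figure D1:**
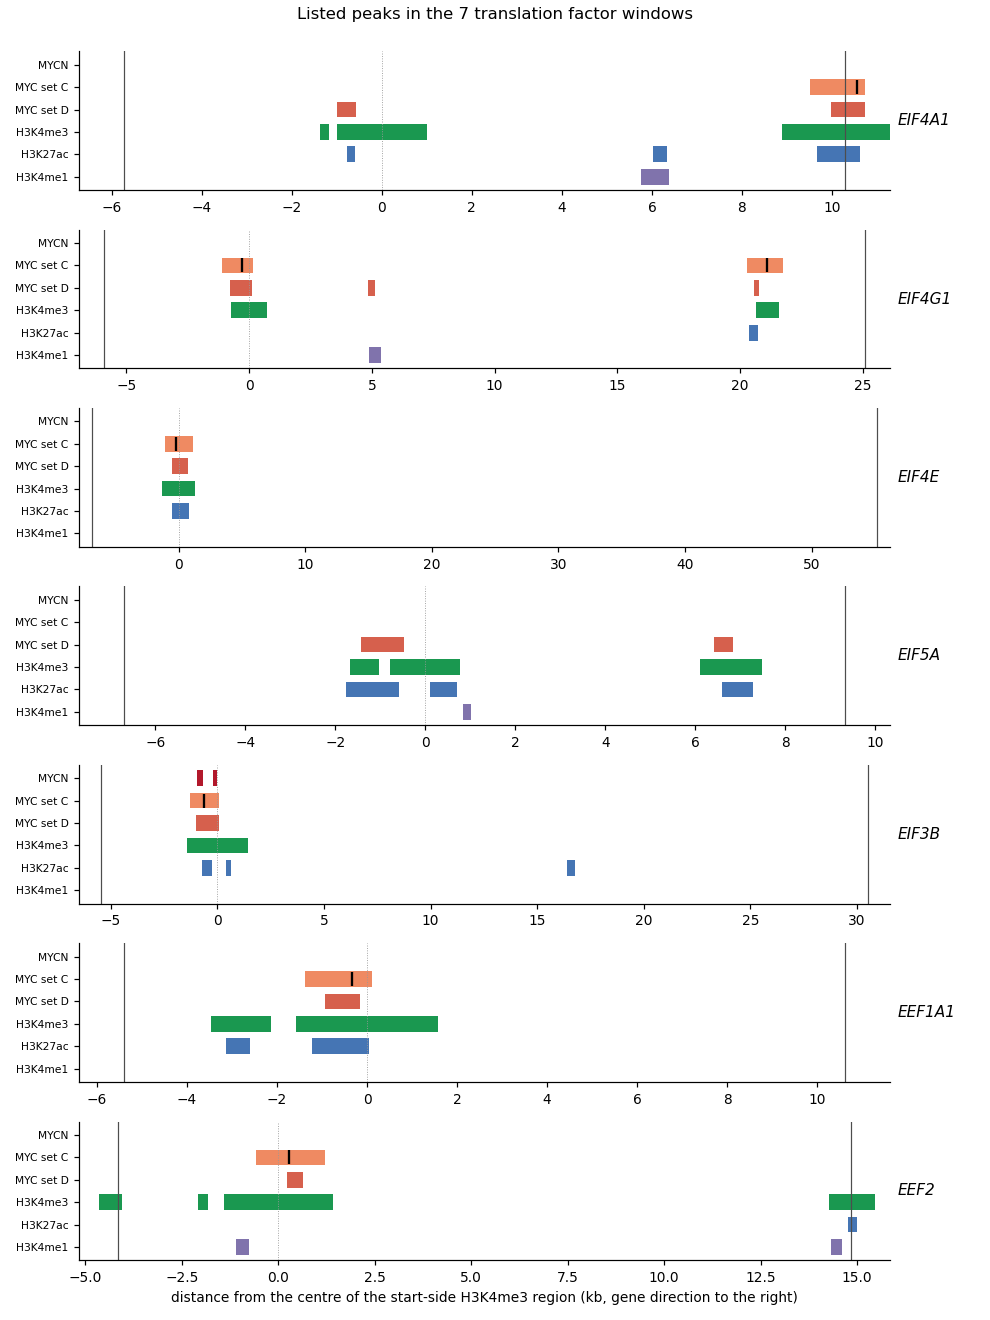
Each panel shows 1 window, with the listed peaks of the 6 lists as bars along a linear axis in kb from the centre of the H3K4me3 region on the start side of the gene, the gene direction running to the right. Vertical lines are the window edges, peaks that cross an edge are drawn in full, and black ticks in the MYC set C row mark the stretch of highest signal named in that list; EIF4E has a single stack of peaks in 62.0 kb, EIF3B alone has MYCN, and EIF5A alone lacks MYC set C.

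EIF4E encodes the cap-binding protein, and its promoter carried the widest MYC peaks among the 7 genes in both lists. Its window, chromosome 4 from 99795000 to 99857000, held exactly 1 peak of each of 4 lists, all in 1 place, and no MYCN or H3K4me1. MYC in set C ran from 99849003 to 99851269, a width of 2267 bp, wider than 95.0% of that list. The set D peak ran from 99849416 to 99850698, or 1283 bp, which ranked 185 by width among the 18018 peaks of set D and was wider than 99.0% of them. H3K4me3 enclosed both, from 99848837 to 99851503 (2667 bp), and MYC of set C covered 85.0% of that region. H3K27ac ran from 99849353 to 99850697, ending 1 bp short of the set D MYC peak. In the remaining length of the window none of the 6 lists had a peak.

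EIF4G1, the scaffold of eIF4F, had MYC at 3 separate places in its window, chromosome 3 from 184027000 to 184058000. The place on the start side held MYC of set C from 184031802 to 184033053 (1252 bp), MYC of set D from 184032150 to 184033029 (880 bp, wider than 91.6% of its list) and H3K4me3 from 184032171 to 184033652 (1482 bp). No H3K27ac was listed there, and the nearest H3K27ac region of the window began 19614 bp farther on. A second place had MYC of set D alone, 289 bp from 184037751 to 184038039, overlapping a stretch of H3K4me1 (184037776 to 184038302) and outside the other marks, a combination met by 3.76% of all set D peaks. The third, near the far end of the window, joined MYC of set C (184053193 to 184054648) and of set D (184053477 to 184053698) with H3K4me3 (956 bp) and H3K27ac (387 bp). In the RefSeq gene order FAM131A follows EIF4G1, so this last place may belong to either gene, and it is given by position only.

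EIF4A1 encodes the helicase of eIF4F, and the 2 blocks of H3K4me3 that its window met differed in MYC. Its window was chromosome 17 from 7471000 to 7487000. On the start side, H3K4me3 from 7475725 to 7477712 (1988 bp) met a MYC peak of set D, 433 bp from 7475720 to 7476152, with 164 bp of H3K27ac and no MYC of set C, and a further H3K4me3 region of 189 bp stood 180 bp before it without MYC or another mark. At the far edge lay the widest H3K4me3 region of the window, 2681 bp from 7485601 to 7488281, which runs out of the window. It met MYC of set C (1216 bp), MYC of set D (764 bp) and H3K27ac (956 bp), and also a MYCN peak of 229 bp, from 7487210 to 7487438, that begins 209 bp beyond the window edge. The RefSeq order places CD68 and then MPDU1 after EIF4A1, so this edge block cannot be given to EIF4A1 from position alone. Between the blocks, H3K4me1 (632 bp from 7482473 to 7483104) overlapped H3K27ac (319 bp) with neither MYC nor H3K4me3.

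**Figure D2:**
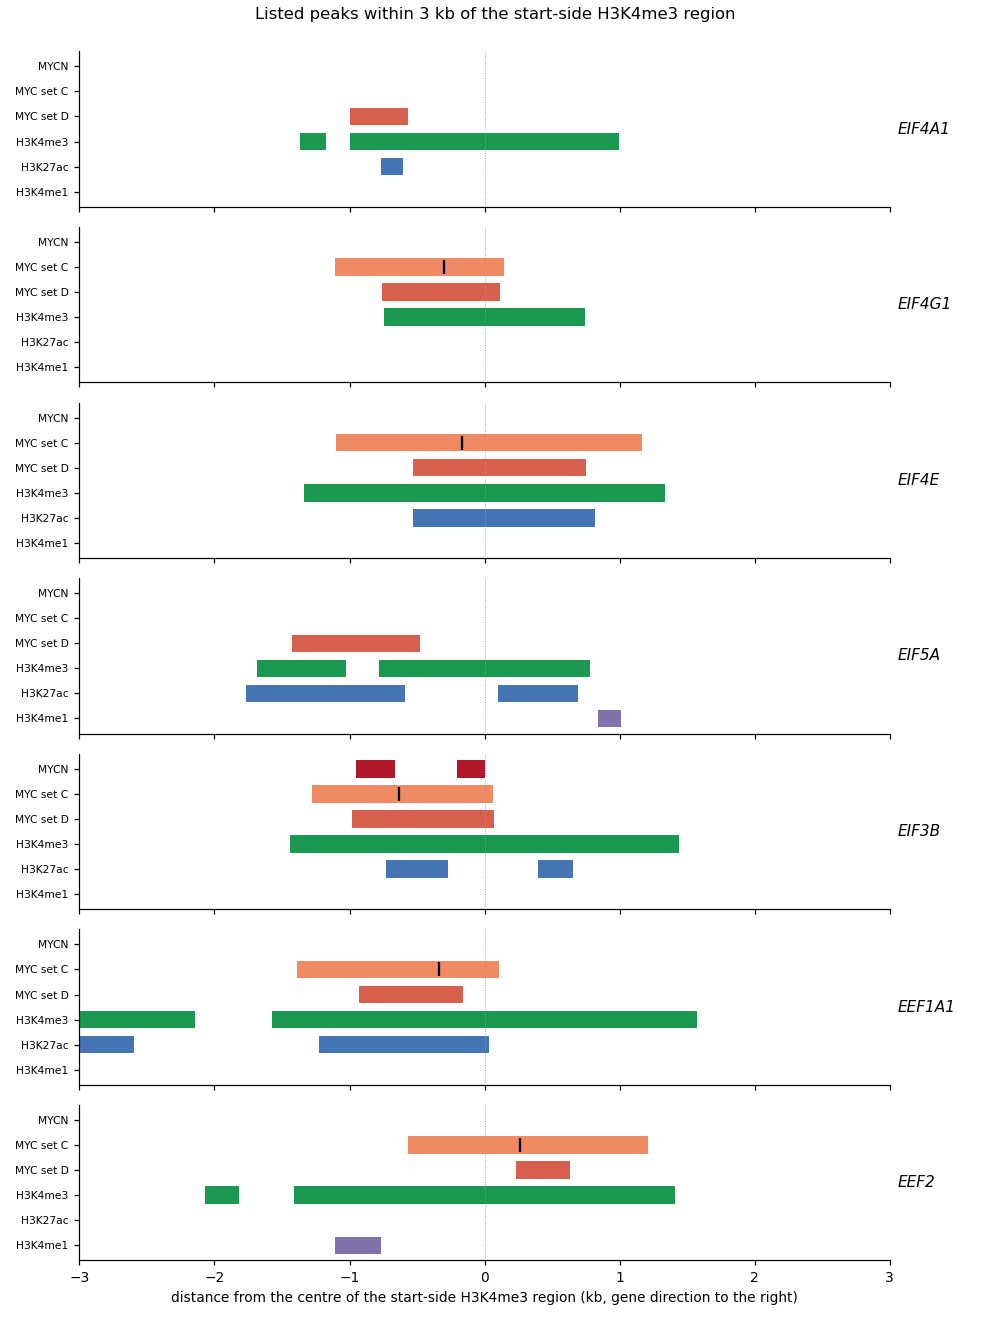
The same peaks are shown within 3 kb on either side of the centre of the start-side H3K4me3 region of each gene, with the axis in kb and the gene direction to the right, and black ticks for the highest-signal stretch of MYC set C. MYC set D has a bar at all 7 genes, MYC set C at 5, H3K27ac is missing at EIF4G1 and EEF2, and at 5 of the 7 genes the set D peak that meets the central region is centred on its upstream side.

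EIF3B, a core subunit of eIF3, was the only gene of the 7 with MYCN inside its window, chromosome 7 from 2389000 to 2425000. There were 2 MYCN peaks, 294 bp from 2393518 to 2393811 and 204 bp from 2394271 to 2394474, with 459 bp between them. Both lay within MYC of set C (1338 bp from 2393197 to 2394534) and of set D (1053 bp from 2393488 to 2394540, wider than 96.3% of its list). The highest-signal stretch of MYC in set C, 39 bp from 2393816 to 2393854, fell in the interval between the MYCN peaks and met neither. H3K4me3 spanned all of these from 2393032 to 2395910 (2879 bp, wider than 93.0% of its list). H3K27ac of 456 bp overlapped the first MYCN peak by 67 bp and ended 70 bp before the second. A further H3K27ac region of 257 bp, in the same H3K4me3 region, met no factor. In the interior of the window a region of 360 bp of H3K27ac stood without MYC, MYCN, H3K4me3 or H3K4me1. In the GRCh38 gene table SNX8 overlaps EIF3B at its lower end. The H3K4me3 region with MYC and MYCN therefore cannot be given to only 1 of them from position.

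EIF5A, whose product carries hypusine, was the gene without MYC in set C anywhere in its window, chromosome 17 from 7205000 to 7221000. In set D it had 2 MYC peaks. The one at the start side measured 944 bp, from 7210262 to 7211205, and was wider than 93.8% of the set D list. It bridged the 248 bp between the H3K4me3 regions of 659 and 1556 bp and overlapped the first by 398 bp and the second by 298 bp. H3K27ac of 1172 bp shared 833 bp with it, and a second H3K27ac region of 590 bp followed after 694 bp. The other MYC peak, 431 bp from 7218100 to 7218530, lay in H3K4me3 of 1375 bp and overlapped part of H3K27ac of 668 bp, on the side where GPS2 follows in the RefSeq order. H3K4me1 in this window amounted to 168 bp, 64 bp past the second H3K4me3 region.

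EEF1A1, which encodes the most used form of eEF1A, had the broadest H3K4me3 of the 7. The window, chromosome 6 from 74220000 to 74236000, held H3K4me3 regions of 3144 bp (74229039 to 74232182, wider than 95.0% of the list) and 1314 bp, separated by 571 bp. Joined across that interval they formed a domain of 5029 bp, number 127 by width among 11978 domains. MYC of set C (1494 bp from 74230503 to 74231996) and of set D (769 bp from 74230774 to 74231542) lay within the first of them, together with H3K27ac of 1262 bp. The other H3K4me3 region, upstream of it in the gene direction, carried 530 bp of H3K27ac and no MYC of either set. MYCN and H3K4me1 were not listed in the window. So the canonical and variant E-box letters were missing from the 250 bases shown above for a gene at which MYC was listed in both sets.

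EEF2, the translocase of elongation, combined wide H3K4me3 with MYC but without H3K27ac. On chromosome 19, in the window from 3971000 to 3990000, H3K4me3 from 3984437 to 3987253 measured 2817 bp and was wider than 92.4% of its list. MYC of set C within it was 1780 bp wide (3984636 to 3986415), the widest of the 7 genes after EIF4E, and wider than 87.8% of set C. The set D peak was the narrowest start-side MYC peak of the 7, at 399 bp (3985216 to 3985614, wider than 46.3% of set D), so the lists ranked this gene differently. H3K4me1 of 337 bp lay inside the same H3K4me3 region, 197 bp from MYC of set C and 998 bp from that of set D. The only H3K27ac of the window crossed its lower edge with 80 bp, 13356 bp away from the H3K4me3 region with MYC, on the side of DAPK3 in the RefSeq order. It met H3K4me3 of 1210 bp there, which also held H3K4me1 of 294 bp and no MYC. The remaining H3K4me3 regions were 248 bp, 413 bp past the main one and without any other list, and 596 bp at the upper window edge, where a set D MYC peak of 231 bp began 281 bp beyond that edge.

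Set side by side, the MYC lists overlapped at every set C region of the windows, including the edge block of EIF4A1 and the far place of EIF4G1. Most set C regions of the whole list did so too, and it is not settled that the lists are independent. All 7 regions of set C in the windows overlapped a peak of set D, against 82.5% of all set C regions. The highest-signal stretch met a set D peak in all 7 as well, against 77.3% of the 9482 set C regions with a complete stretch, and lay wholly inside it in 6; the exception was the far place of EIF4G1, where the stretch of 769 bp was longer than the set D peak of 222 bp. In the other direction 7 of the 11 set D peaks overlapped set C, against 45.1% of all set D peaks. Of those 7, 6 lay entirely inside the set C region and that of EIF3B protruded by 6 bp. The 4 without set C were the start-side peak of EIF4A1, the peak in H3K4me1 at EIF4G1 and both peaks of EIF5A. Widths differed by a factor of 1.27 (set C over set D) at EIF3B and 4.46 at EEF2 among the promoters, and the callers differ, so these ratios do not compare amounts of MYC.

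MYC in these windows was mostly at H3K4me3. All 7 set C regions and 10 of the 11 set D peaks overlapped H3K4me3, against 65.9% of all set C regions and 56.0% of all set D peaks. H3K27ac was met by 5 of the 7 in set C and 8 of the 11 in set D, against 78.2% and 70.7% over the whole lists. H3K4me1 was met by none of the 7 and 1 of the 11, against 26.6% and 28.2%. MYCN was met by 2 of the 11 set D peaks, at EIF3B and at the edge of the EIF4A1 window, against 4.72% of all set D peaks. The windows were chosen around genes, which the whole lists were not.

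A closer comparison takes 1 H3K4me3 region per gene, the widest of the window, and sets it against all H3K4me3 regions. MYC of set D overlapped 7 of these 7 regions, against 72.3% of all 13852, and MYC of set C overlapped 6, against 47.9%. MYC of at least 1 set was therefore at 7, against 76.7%, and MYC of both sets at 6, against 43.4%. MYCN overlapped 2, at EIF3B and at the edge block of EIF4A1, against 5.10%. H3K27ac overlapped 5 of the 7, against 66.2%, and H3K4me1 overlapped 1, at EEF2, against 14.4%. Taking the region on the start side of each gene instead, a choice made after the positions were seen, changes only EIF4A1, and leaves MYC of set C at 5 of 7 and MYCN at 1. The regions of the members are wide, at 1482 bp or more, and of the 6082 H3K4me3 regions of at least that width 90.4% overlapped MYC of set D, 64.3% MYC of set C, 93.0% MYC of at least 1 set, 61.7% both, 8.17% MYCN, 84.5% H3K27ac and 11.6% H3K4me1. Beside wide regions, then, the presence of MYC at all 7 genes was close to the background, and no test was made on the other shares. EIF4G1 and EEF2 were the 2 genes with MYC in both sets and no H3K27ac in the region. A looser condition, MYC of at least 1 set with no H3K27ac, was seen at 18.1% of all H3K4me3 regions. MYC of set D without set C, as at EIF5A and at the start-side region of EIF4A1, was seen at 28.9%. Neither share was computed for wide regions alone.

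**Figure D3:**
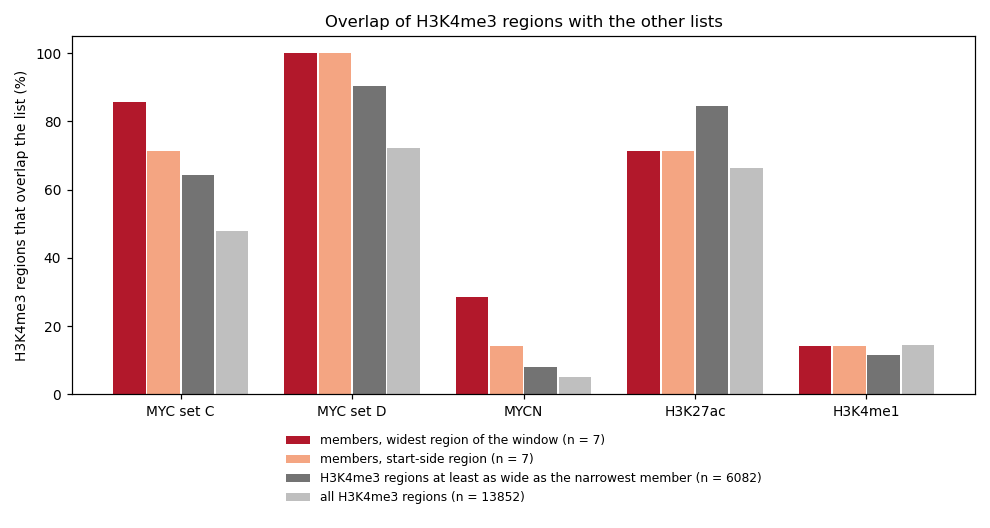
Bars give the percentage of H3K4me3 regions that overlap each list at 1 bp or more, from left to right for the widest region of each window (7 genes), the start-side region (7 genes), all H3K4me3 regions at least as wide as the narrowest of the members (6082) and all H3K4me3 regions (13852). The members stand above all H3K4me3 regions for both MYC lists, and for MYC set D close to the 90.4% of wide regions. For MYC set C the start-side regions, 5 of 7, are also near the 64.3% of wide regions. No error bars are drawn, since each bar is a share of listed regions from single libraries.

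Width within the own list separated the genes further. The widest peak of each window was ranked against all single peaks of its list. This choice raises the percentages where a window holds several peaks, and the widest peaks of the tiles were not ranked. For H3K4me3 the widest region of the window was wider than 90.3% to 95.0% of the list at 5 genes, EIF4E, EIF4A1, EEF2, EIF3B and EEF1A1, and wider than 56.1% at EIF4G1 and 59.3% at EIF5A. The value of EIF4A1 is that of the block at the window edge, and its start-side region was wider than 75.2% of the list. For MYC of set D the widest peak exceeded 86.1% to 99.0% of the list at 6 genes, EEF2 being the exception. At EIF4A1 this again was the edge block, and the start-side peak of 433 bp exceeded 51.6% of the list. In set C the range was 55.2% at EIF4A1, where the edge block held the only region, to 95.0% at EIF4E. The widest H3K27ac region exceeded 91.7% of its list at EIF4E, 89.7% at EEF1A1, 87.1% at EIF5A and 78.9% at EIF4A1, but only 40.8% at EIF3B, 34.0% at EIF4G1 and 17.7% at EEF2. The H3K27ac values of EIF4A1, EIF4G1 and EEF2 belong to places away from the start-side region, which at EIF4A1 met H3K27ac wider than 3.35% of the list and at EIF4G1 and EEF2 met none. EIF3B thus had wide H3K4me3 and wide MYC of set D beside H3K27ac of 456 bp, below the list median of 551 bp. A second H3K27ac region of 257 bp lay in the same H3K4me3 region, and MYC of set C exceeded 65.5% of its list.

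**Figure D4:**
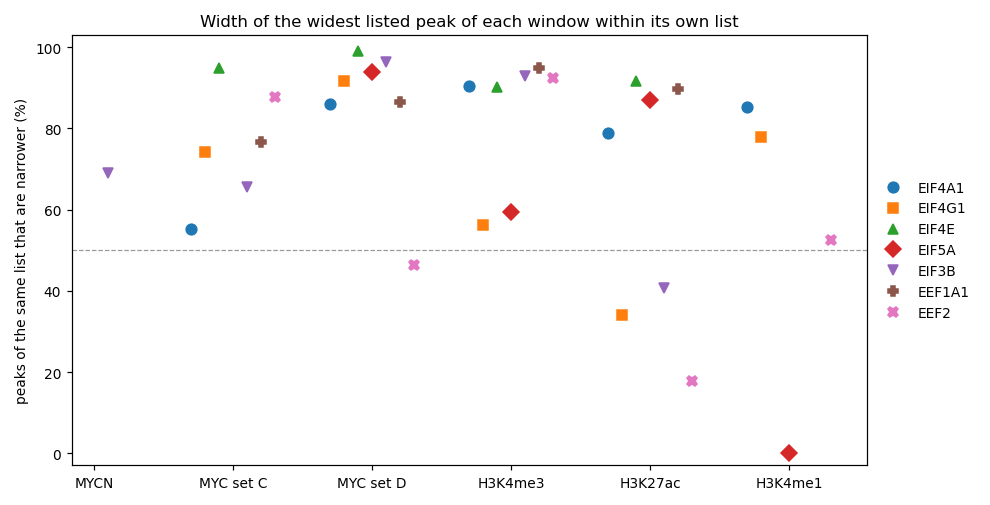
Points give, for the widest peak of each window in each list, the percentage of the peaks of that list that are narrower, with 1 symbol per gene and a dashed line at 50%. EIF4E is at 95.0% in MYC set C and 99.0% in MYC set D. EEF2 is at 17.7% in H3K27ac, from a peak that crosses its window edge. The EIF4A1 points for MYC, H3K4me3 and H3K27ac come from the block at its window edge. The EIF4G1 points for MYC set C and H3K27ac come from the place near the far end of its window.

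The position of MYC relative to the start-side H3K4me3 regions varied between genes. The set D peak was centred upstream of the centre of the region in the gene direction at 5 of 7 genes, by 322 bp at EIF4G1, 457 bp at EIF3B, 548 bp at EEF1A1, 782 bp at EIF4A1 and 952 bp at EIF5A. It was centred downstream by 113 bp at EIF4E and 430 bp at EEF2. At EIF5A the peak overlaps the region but its centre lies outside it. The side also depends on how H3K4me3 is divided. Against the joined domain of 5029 bp at EEF1A1, MYC of both sets is centred downstream. A split of 5 to 2 is near an even one, and the share over all H3K4me3 regions was not computed, so the side is a description of these genes only. Among the 5 genes with set C there, the set C region was upstream at 3, by 484 bp at EIF4G1, 606 bp at EIF3B and 639 bp at EEF1A1, and downstream at EIF4E by 34 bp and at EEF2 by 320 bp. Both lists gave the same side at each of those 5 genes. The direction of each gene was taken from the RefSeq table, and hg19 gene models were not used here.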

How the data were processed

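Peak positions from 6 CUT&RUN libraries were used as deposited. The submitters' processing notes name hg19, MACS2 and SEACR. Per the file headers, MYCN peaks are cutruntools output with a q-value threshold, H3K4me3 peaks come from MACS2, SEACR in stringent mode gave the set C list of MYC from paired reads, and MACS2 gave that of set D from reads taken as unpaired. The H3K27ac and H3K4me1 lists have no header. The sources used here do not name aligner, versions or duplicate handling. Depth is unknown.

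Chromosomes 1 to 22 and X were kept. A peak counted when it shared at least 1 bp with a window or region. Start positions were raised by 1 base. Shares over all regions stand beside the counts, with no test, since each target has 1 library (MYC 2). In set C the name column of 9482 of 9498 regions gives a complete stretch, always inside the region, which in SEACR output is that of the highest signal. Motifs were counted on both strands in the 250 bases before each RefSeq start (GRCh38.p14). CACGTG was counted separately from CATGTG and from CACGCG, each with its reverse. All 7 genes were named by rule, and the wider list of translation factors and related genes was used for promoter letters only. The genes, windows and lists were chosen with earlier results of these data known. The planned naming of genes with the most similar pattern needs an hg19 annotation and was not run. Overlap code was checked on simulated data (400 of 400 planted overlaps recovered) and against bedtools 2.31.1 (30 of 30 pairs of lists equal). Software was Python 3.11.15 with pandas 2.3.3, numpy 2.4.6, scipy 1.17.1 and matplotlib 3.10.9. Alternatives were the overlap rule, the window edges, either MYC list alone, the wider peaks of each list, joined or wide H3K4me3 regions and, added after the data were seen, the start-side region.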

Additional observations from a re-analysis of the deposited data

How the results depend on the processing

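Of 54 recomputed counts of members, 51 stayed within 1.5 times the reported count. With only 7 genes this limit is wide, and some counts moved inside it. H3K4me1 was in 6 windows, against 4, when windows were 5 kb wider on each side. It was in 3 with only the peaks at or above the median width. MYC of both lists was in 5 windows, against 6, with those wider peaks and also with windows 3 kb narrower on each side. With windows 5 kb wider on each side MYCN was in 2 windows, against 1, the added one being EIF4A1. With only the peaks at or above the median width of their list, H3K27ac remained in 4 windows, against 7. With the start-side H3K4me3 region, MYCN overlapped 1 region, against 2. The count of H3K4me3 regions of the members with MYC in at least 1 list was 6 to 7 when either MYC list was left out.

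The shares over all H3K4me3 regions moved more. With peak centres, MYC in at least 1 list was at 68.3% of regions, against 76.7%, H3K27ac at 58.2%, against 66.2%, and H3K4me1 at 10.8%, against 14.4%. With at least 50% of the peak inside, these were 66.7%, 56.8% and 10.5%. Joined regions gave 82.9% for MYC, 5.92% for MYCN, 73.3% for H3K27ac and 16.4% for H3K4me1. Wide regions alone gave 93.0%, 8.17%, 84.5% and 11.6% in the same order. Leaving out either MYC list gave 47.9% to 72.3%. The causes were not tested. No paired analysis was possible because each target other than MYC has 1 library and no test was made. Depth cannot be judged from these lists, and 7 genes allow no statement on translation factors at large.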
